A study of Mus musculus with 5 samples.

Results

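Pericytes and other mural cells were studied in single-cell RNA-seq of 5 mouse synovial sarcoma (SyS) tumours. A cell was taken as mural by a gate on its own unique molecular identifiers (UMIs), each of which counts 1 captured RNA molecule. It needed at least 3 of 7 mural genes (Rgs5, Pdgfrb, Notch3, Cspg4, Kcnj8, Acta2 and Myh11) and at least 2 UMIs of Rgs5, Notch3 and Kcnj8 together. It could hold at most 1 UMI of the endothelial genes Cdh5 and Pecam1, 3 of the macrophage genes C1qa, C1qb and C1qc, and 1 of the fibroblast genes Dpt, Lum and Clec3b. Adgrb3, a gene of the SyS cells, had to be below 5 UMIs. The gate held 1091 of 42516 kept cells (2.57%), which were those with at least 750 detected genes and at most 25% mitochondrial UMIs. Endothelial cells of the same tumours, chosen by the mirror-image gate (at least 3 of Cdh5, Pecam1, Kdr, Flt1, Tie1, Cldn5 and Emcn), numbered 2109.

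All tumours came from *hSS2* mice, which express the human SS18::SSX2 fusion from the Rosa26 locus after TATCre protein, a cell-penetrating recombinase, is injected into the limb. Recombination therefore takes place in whichever limb cells the protein reaches, and no tumour-free limb was included. By histology 2 tumours were labelled biphasic (BP, with an epithelial component), 1 monophasic (MP, spindle cells), 1 MP+BP and 1 PD+MP, where PD is poorly differentiated. The labels give no age, sex or strain, and the labels of both BP tumours share a leading number whose meaning is not stated, so n may overstate how many independent animals there were. Tumours were taken at morbidity, dissociated with enzymes, strained and treated with a red cell lysis solution.

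Mural cells wrap the endothelial tube of blood vessels. Pericytes lie on capillaries inside the same basement membrane as the endothelium, and vascular smooth muscle cells form the contractile coat of arterioles, arteries and veins. Endothelial PDGF-B recruits them through the receptor PDGFRβ, and endothelial Notch ligands act on mural NOTCH3. Pericytes are known for RGS5 and for the ATP-sensitive potassium channel of KCNJ8 and ABCC9. Smooth muscle is known for contractile proteins such as smooth muscle myosin (MYH11), transgelin and calponin.

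The 5 matrices held 51670 barcodes and between 89996321 and 118649103 UMIs each. Between 6686 and 10342 cells per tumour were kept. The median mural cell had 2935 to 5393 UMIs and the median endothelial cell 4064 to 5072, and the mural median was the lower one in 4 of 5 tumours. Cells of SyS, taken here only as a reference for free RNA, had medians of 7885.5 to 9952. Of the mural barcodes, 6 also occurred in another matrix, and no barcode was mural in more than 1. The median mitochondrial share of mural cells was 3.92% to 5.73%. The library labelled PD+MP stood apart in holding only 39 mural cells and in its sex-linked genes, with Xist at 0 and Uty at 59.1 counts scaled to 1000000 UMIs (CPM) in mural cells, where the other tumours had Uty at 0. Its values are therefore the least precise ones below. Counting intervals cover counting error only, and p-values measure the spread between these tumours.

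The genes that chose the cells are given as a description, with no test, in the order BP replicate 1, BP replicate 2, MP, MP+BP and PD+MP, which all lists of 5 values follow. Rgs5, a brake on G protein signals (chr1:169655501-169695813, GRCm38), was at 13722, 15722, 10309.7, 11939 and 10663 CPM in mural cells, against 2.41 to 11.5 in endothelial cells. It was found in 99.5% to 100% of the mural cells of each tumour. Pdgfrb was at 715, 774, 683, 625 and 572 CPM and Notch3 at 495, 442, 555, 610.0 and 646 CPM. These receptors varied little between tumours. Kcnj8 was at 373, 271, 184, 101 and 189 CPM and Cspg4, the NG2 proteoglycan, at 248, 220.1, 145, 138 and 213 CPM, both highest in BP replicate 1 and lowest in MP+BP. Acta2, smooth muscle actin, spread most of the 7 genes, from 565 CPM in BP replicate 2 through 1557 in BP replicate 1, 1760 in MP+BP and 1906 in MP to 3595 in PD+MP. The endothelial gate gene Cdh5 was at 0 to 6.57 CPM in mural cells against 1572 to 1875 in endothelial cells.

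Cells near the limits of the gate differed in how pericyte-like they were. The 174 cells with exactly 3 mural genes had 9242 CPM of Rgs5 and 869 CPM of Higd1b, a pericyte gene outside the gate. The 104 cells that met every other condition with 2 mural genes had 1936 and 142 CPM. Only 9 members had as few as 2 or 3 UMIs of the core genes, with 179 CPM of Rgs5 and no UMI of Higd1b. The 20 cells just outside, with 1 core UMI, had 15.7 and 7.84 CPM. The 69 cells left out for 2 UMIs of Cdh5 and Pecam1 had 11559 CPM of Rgs5 and 1036 CPM of Higd1b, as high as members. The gate thus left some cells outside that read like its members, and held a few with little sign of them. A further 256 cells failed only by more than 2 UMIs of Cdh5 and Pecam1. Another 206 failed only on Adgrb3, namely 36, 91, 38, 27 and 14 per tumour. The levels of these cells were not examined, and the mural shares below leave them out.

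Marker lists of other cell types, without the gate genes, were low in the mural sums. The summed level of 5 endothelial markers was 11.8 to 32.1 CPM in mural cells against 1755 to 2132 in endothelial cells, with Robo4 at 0 in all 5 tumours. The 9 SyS markers summed to 74.9 to 283 CPM against 895 to 1343 in SyS cells, and the 7 macrophage markers to 37.2 to 65.2 CPM with Mrc1 at 0. The skeletal muscle markers, relevant in a limb tumour, summed to 3.94 to 16.1 CPM, with the sarcomere genes Acta1, Tnnt3 and Tnnc2 at 0. Lymphocyte markers summed to 1.64 to 8.64 CPM and Schwann cell markers to 7.53 to 15.8 CPM. Fibroblast markers reached 534 to 1127 CPM against 264 to 519 in endothelial cells, and one of the 7, Gsn (gelsolin, an actin-severing protein), made up 356 to 875 CPM of that sum. Erythroid markers differed widely, at 8.64 to 117 CPM in mural and 4.14 to 2162 CPM in endothelial cells. EGFP, listed as a feature beside the mouse genes, had 17 UMIs in all mural cells (0 to 7.41 CPM) and 47 in endothelial cells (0 to 5.93 CPM), against 26.3 to 38.1 CPM in SyS cells.

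Mural cells were most frequent in the MP tumour. They numbered 211 (BP replicate 1), 152 (BP replicate 2), 474 (MP), 215 (MP+BP) and 39 (PD+MP). Their share of kept cells was 3.16%, 1.47%, 6.14% (95% exact binomial interval 5.62% to 6.70%), 2.31% and 0.461% (0.328% to 0.630%), a mean of 2.71% ± 2.16 (SD, n = 5). The share in MP was above the intervals of all other tumours and that in PD+MP below them. Endothelial cells numbered 519, 475, 557, 491 and 67, so PD+MP had few of both kinds. Per endothelial cell there were 0.407, 0.320, 0.851, 0.438 and 0.582 mural cells. Every tumour with BP in its label had a lower ratio than either tumour without it, with a mean of 0.388 ± 0.0611 (SD, n = 3) against 0.717 ± 0.190 (SD, n = 2). A two-sided exact permutation test gave p = 0.2, the smallest that 3 against 2 tumours allow, so this design could not reach 0.05. The difference in ratio of -0.328 ran from -0.463 without PD+MP to -0.194 without MP. The share of kept cells was 2.31% ± 0.84 (n = 3) against 3.30% ± 4.02 (n = 2), exact permutation p = 0.8. Without MP, the only other tumour lacking the BP label is PD+MP, and the difference in share turned from -0.99 to 1.85 percentage points. How well each cell type survived dissociation was not tested.

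**Figure D1:**
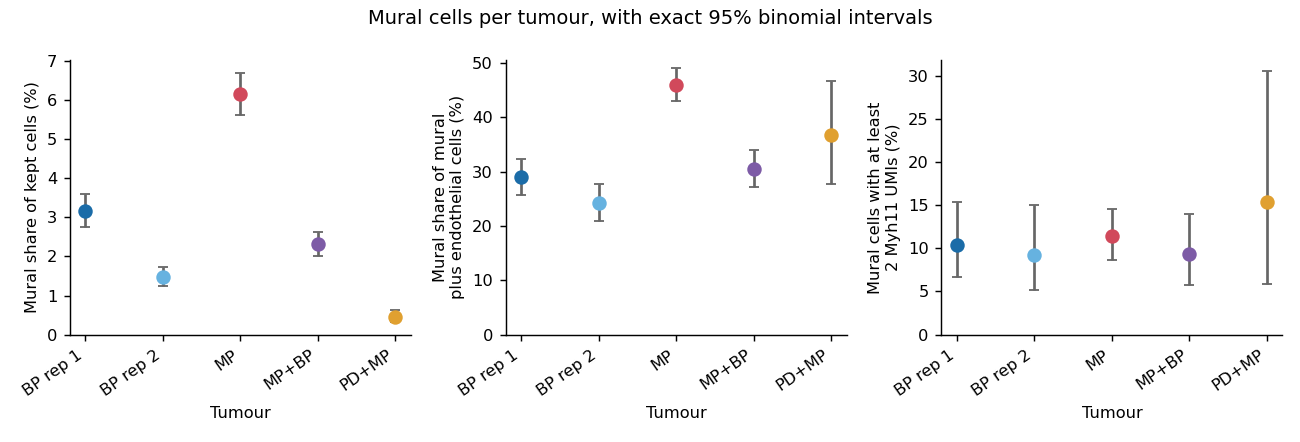
Mural cells in each of the 5 tumours. The left panel gives mural cells as a percentage of kept cells, the middle panel as a percentage of mural and endothelial cells together, and the right panel the percentage of mural cells with at least 2 Myh11 UMIs; points are 1 tumour each and bars exact 95% binomial intervals. MP is highest in the left (6.14%) and middle (46.0%) panels, and the intervals of all tumours overlap in the right panel.

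Counts were then summed per tumour and cell type, and mural sums were set against endothelial sums of the same 5 tumours with edgeR's quasi-likelihood test, with the tumour as a block. Over 10717 tested genes outside the gates, 43.5% passed a Benjamini-Hochberg adjusted p of 0.05, 22.0% higher (2355) and 21.5% lower (2304) in mural cells. Passing was therefore common. A gene near 0 in 1 population could pass the filter on low counts through the other population alone, and then had to differ. The log2 difference and p-value of such a gene are descriptions. Counts and medians of lists are therefore descriptions of the members that passed. Each is also given for the members with at least 10 counts in every sum (well-counted members). Over all 3748 well-counted genes outside the gates, 913 were higher and 884 lower in mural cells, with a median of -0.0054.

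Pericyte genes outside the gate were near 0 in the endothelium for most of those tested. Of 23 on the list, 18 lay outside the gate, and 17 of these passed the filter. Of the 17, 16 were higher in mural cells and none lower, with a median log2 difference of 5.49 against 0.00 over all genes. Only 3 were well counted, with 2 higher and a median of 2.15. Higd1b, a hypoxia-inducible protein family member (chr11:102835849-102838040), was at 1188, 1096, 1075, 919 and 1198 CPM in mural cells and at 0.799 to 2.41 CPM in endothelial cells. No tumour fell far from the others and the populations did not overlap (log2 difference 9.52 ± 0.20 (SE, n = 5 pairs), adjusted p = 6.79e-11). Ndufa4l2 and Cox4i2, both mitochondrial proteins tied to low oxygen, were at 820.0 to 1343 and 445 to 938 CPM in mural cells and differed by 8.05 ± 0.21 and 8.19 ± 0.24. Vtn, the adhesion protein vitronectin, was at 116, 131, 86.2, 102 and 185 CPM (7.31 ± 0.25, adjusted p = 6.19e-10). Rgs4, a relative of Rgs5 that lies beside it on chromosome 1, was at 123 to 195 CPM and differed by 9.06 ± 0.30. Aspn, the matrix proteoglycan asporin, was at 948, 905, 1032, 835 and 745 CPM (7.54 ± 0.23), again a narrow range.

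The channel subunit Abcc9 (chr6:142587862-142702315) lies next to Kcnj8 (chr6:142564837-142571614), with which its protein forms the ATP-sensitive potassium channel. It was at 1079.8, 1391, 707, 429.7 and 777 CPM in mural cells, with the lowest value in MP+BP, where Kcnj8 was lowest too. Endothelial values were 46.4, 55.2, 8.48, 9.66 and 4.83 CPM (5.36 ± 0.29, adjusted p = 2.41e-08). Among the gap junction genes, Gjc1 (connexin 45) was at 427 to 665 CPM in mural cells and differed by 3.90 ± 0.24, and Gja4 (connexin 37) was at 159 to 216 CPM and differed by 2.20 ± 0.25. Mcam, the surface protein CD146, was the exception. It was at 484, 330.2, 448, 398 and 572 CPM in mural cells and 491, 350.4, 414, 341 and 391 CPM in endothelial cells, higher in 3 of 5 tumours (0.22 ± 0.12, adjusted p = 0.164).

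**Figure D2:**
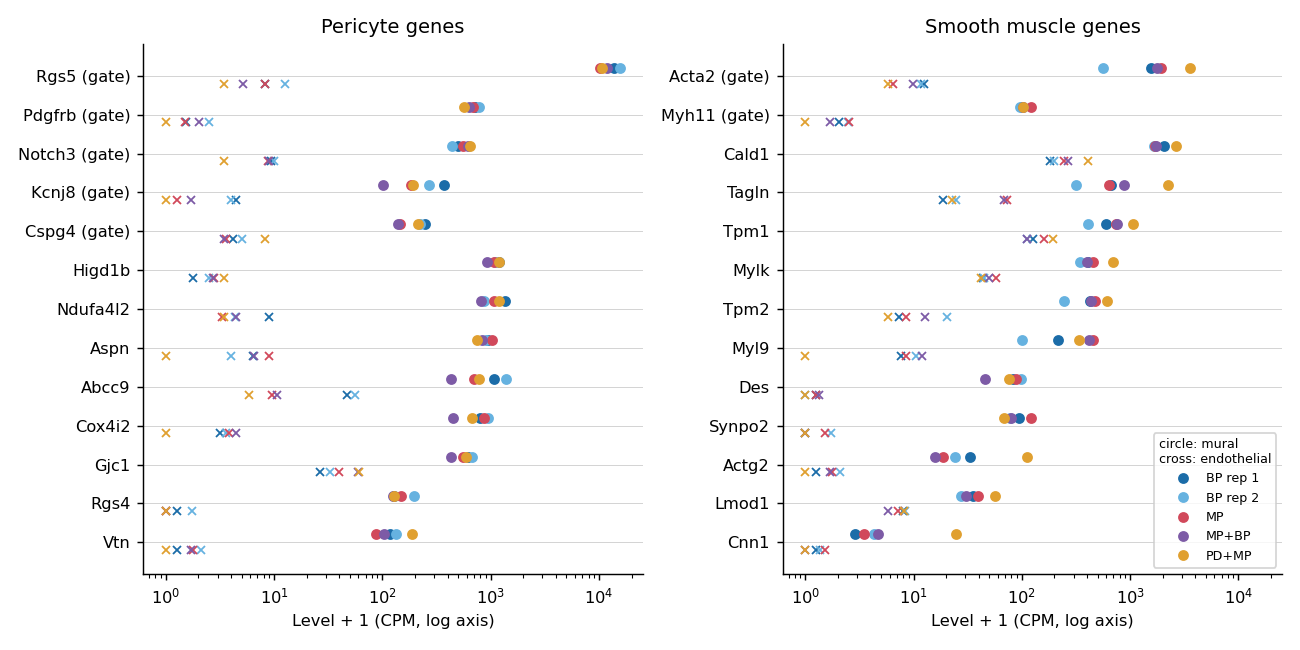
Levels of 13 pericyte and 13 smooth muscle genes in the sums of each tumour, as CPM with 1 added on a log axis. Circles are mural and crosses endothelial sums, 1 per tumour. Higd1b lies between 919 and 1198 CPM in mural cells and at or under 2.41 CPM in endothelial cells.

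Contractile genes were described in the same way. Of 28 smooth muscle genes, 26 lay outside the gate and 20 of these passed the filter, with 17 higher, 2 lower and a median log2 difference of 3.47. The 6 well-counted members had 5 higher, 1 lower and a median of 1.74. Tagln, the actin-bundling protein transgelin, was at 671, 314, 638, 878 and 2219 CPM in mural cells against 17.6 to 72.0 CPM in endothelial cells (4.32 ± 0.38, adjusted p = 1.58e-06). Like Acta2, it was lowest in BP replicate 2 and highest in PD+MP. Tagln was found in 40.3%, 16.4%, 46.2%, 45.1% and 69.2% of mural cells and Acta2 in 66.4%, 42.1%, 81.2%, 67.9% and 87.2%, in the same order of tumours for the lowest and highest. Myl9, the regulatory light chain of smooth muscle myosin, was at 216, 98.6, 456, 412 and 339 CPM (5.18 ± 0.33). Mylk, the kinase that acts on that light chain, was at 403, 345, 452, 396 and 689.8 CPM (3.26 ± 0.16). Tpm1 and Tpm2, tropomyosins, were at 404 to 1064 and 241 to 615 CPM and differed by 2.39 ± 0.14 and 5.36 ± 0.34. Cald1, the thin filament protein caldesmon, was at 2046, 1671, 1705, 1744 and 2661 CPM (3.04 ± 0.14, adjusted p = 5.22e-09).

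Muscle filament and late contractile genes were at lower levels. Des, the intermediate filament desmin, was at 82.2, 96.9, 87.8, 44.5 and 74.9 CPM and at most 0.345 CPM in endothelial cells (8.16 ± 0.31). Kcnmb1, the β subunit of the large-conductance potassium channel of smooth muscle, was at 50.1, 29.6, 17.2, 14.8 and 27.6 CPM. It had no UMI in endothelial cells, and was at least 116-fold higher in mural cells with 3 counts over all endothelial cells as the floor. Cnn1 (calponin), a marker of mature smooth muscle, was at 1.89, 3.29, 2.51, 3.70 and 23.7 CPM, too low to be tested, and Myocd, the smooth muscle coactivator myocardin, was at 5.67 to 19.7 CPM. Myh11 itself (chr16:14194535-14291372) was at 100.1, 95.3, 122, 102 and 102 CPM. Lower in mural cells were Smtn (smoothelin, 18.1 to 35.8 CPM against 38.6 to 74.8, -1.03 ± 0.20) and Npnt (nephronectin, an integrin ligand, 0 to 23.5 CPM against 60.4 to 179.7, -3.48 ± 0.28).

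Many contractile genes carry in their promoters a CArG box, the motif bound by serum response factor, so the RefSeq promoters (GRCm38.p6, from 250 bases before to 50 after the start) were searched on both strands. The box stood in 488 of 27025 promoters (1.81%), in 4 of the 22 smooth muscle genes that had an entry (18.2%; Myl9, Ldb3, Rergl and Vcl) and in none of 15 pericyte genes. Allowing 1 other base in the core of the box, it stood in 3050 promoters (11.3%), 5 smooth muscle genes (22.7%), no pericyte gene and 3 of 9 endothelial markers (33.3%). These are counts of letters, with no test. The 250 bases before the start are shown for 3 contractile genes and for Rgs5 as the leading pericyte gene, 5′ to 3′ on the strand of the gene, with every box, including those with 1 other base, in capitals.
Myl9, chr2:156775214-156775463, plus strand: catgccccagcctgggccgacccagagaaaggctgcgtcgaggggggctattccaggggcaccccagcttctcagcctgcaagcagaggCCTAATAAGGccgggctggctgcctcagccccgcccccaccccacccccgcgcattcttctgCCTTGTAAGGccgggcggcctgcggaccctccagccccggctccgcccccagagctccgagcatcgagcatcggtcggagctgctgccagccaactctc
Vcl, chr14:20929148-20929397, plus strand: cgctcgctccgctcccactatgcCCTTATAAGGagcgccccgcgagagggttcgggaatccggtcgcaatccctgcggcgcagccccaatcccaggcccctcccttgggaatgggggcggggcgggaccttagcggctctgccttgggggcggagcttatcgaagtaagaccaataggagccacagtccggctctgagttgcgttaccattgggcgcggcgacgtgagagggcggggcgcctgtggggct
Acta2, chr19:34255374-34255623, minus strand: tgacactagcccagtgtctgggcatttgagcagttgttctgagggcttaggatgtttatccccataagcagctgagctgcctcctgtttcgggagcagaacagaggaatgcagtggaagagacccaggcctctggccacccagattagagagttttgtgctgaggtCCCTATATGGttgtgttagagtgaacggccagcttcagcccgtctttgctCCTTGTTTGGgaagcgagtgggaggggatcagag
Rgs5, chr1:169655251-169655500, plus strand: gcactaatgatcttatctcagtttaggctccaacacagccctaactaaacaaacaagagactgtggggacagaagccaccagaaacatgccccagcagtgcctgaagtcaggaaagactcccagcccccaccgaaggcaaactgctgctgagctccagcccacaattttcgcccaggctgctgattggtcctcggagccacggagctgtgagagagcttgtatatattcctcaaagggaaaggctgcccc
The box of Myl9 began 161 bases before the start, followed by a form with 1 other base at 99, and that of Vcl (vinculin, which links actin to adhesions) at 227. Acta2 had 2 forms with 1 other base, at 84 and 34, and Rgs5 had neither form in this window. Vcl was higher in mural cells by 1.17 ± 0.14 on the log2 scale, less than Myl9.

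Notch genes divided between the cell types. Of 14, 12 were tested, with 5 higher and 6 lower in mural cells and a median of -0.50. Of the 5 higher, Rbpj lost its call in 8 of 16 alternatives. The 5 well-counted members had 2 higher, 2 lower and a median of 0.018. Dll4, the tip-cell ligand, was at 10.4, 3.29, 1.25, 1.23 and 3.94 CPM in mural cells against 212 to 336 CPM in endothelial cells (-6.16 ± 0.29, adjusted p = 7.98e-09). Jag2, another ligand, was at 0 to 2.09 CPM against 41.0 to 63.3 (-4.98 ± 0.32). Jag1 went the other way, at 188, 171, 116, 194 and 138 CPM against 38.8 to 71.9 (1.69 ± 0.13, adjusted p = 5.12e-07). Of the receptors outside the gate, Notch1 was at 82.2, 95.3, 97.5, 111 and 55.2 CPM against 237 to 282 (-1.48 ± 0.13) and Notch4 at 0 to 3.78 CPM against 53.1 to 77.0 (-4.95 ± 0.28). Notch2 was higher in mural cells, at 19.7 to 53.1 CPM against 2.41 to 12.4 (2.26 ± 0.24). The target genes, which encode transcriptional repressors, differed in direction. Heyl was at 120.0, 149, 133, 64.2 and 149.8 CPM in mural cells and at most 1.48 CPM in endothelial cells (7.76 ± 0.29, adjusted p = 1.06e-09), and Hey2 was at 21.7 to 53.1 against 0 to 11.9 CPM (3.29 ± 0.48). Hey1 was lower, at 3.94 to 18 against 29.0 to 86.6 CPM (-2.39 ± 0.19). Hes1 overlapped, at 257, 227, 292, 372 and 256 CPM in mural cells and 321, 283, 266, 295 and 237 CPM in endothelial cells (0.07 ± 0.13, adjusted p = 0.732). Mfng, a glycosyltransferase that modifies Notch receptors and led the lower genes outside the lists, had no UMI in mural cells and 63.8 to 99.7 CPM in endothelial cells, at least 132-fold more with the floor over all mural cells.

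Ligand and receptor genes of the vessel wall were split in the same manner for several pairs. Of 25 genes of the PDGF, angiopoietin, VEGF, TGF-β and sphingosine 1-phosphate signals, 20 were tested, with 6 higher and 10 lower in mural cells and a median of -0.77. The 6 well-counted members had 1 higher, 3 lower and a median of -0.85. Pdgfb was at 13.1 to 19.8 CPM in mural cells and 119 to 205 CPM in endothelial cells (-2.96 ± 0.15, adjusted p = 1.14e-08), while its receptor gene Pdgfrb, used by the gate, was high in mural cells. Pdgfa, which encodes another PDGF chain, was the reverse of Pdgfb, at 346, 246, 309, 311 and 260.2 CPM in mural cells against 7.24 to 58.6 (3.52 ± 0.28, adjusted p = 7.07e-07). Angpt1, the agonist of the endothelial receptor TIE2, was at 37.8, 21.4, 113, 51.9 and 47.3 CPM in mural cells against 0 to 6.21 (4.25 ± 0.54, adjusted p = 4.31e-05). The gene of that receptor, Tek, was at 0 to 6.57 CPM against 73.8 to 142 (-4.85 ± 0.28). Angpt2, which can oppose Angpt1, was at 78.4, 23.0, 119.6, 72.9 and 98.5 CPM in mural and 237, 95.6, 141, 54.8 and 155 CPM in endothelial cells. It was lower in 4 of 5 tumours but not past the threshold (-0.66 ± 0.28, adjusted p = 0.0745), and stayed uncalled in 12 of 16 alternatives.

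The sphingosine 1-phosphate receptors were divided sharply. S1pr3 was at 218, 202, 245, 205 and 189 CPM in mural cells, 1154 UMIs in all, with 2 UMIs in all endothelial cells. The ratio of the pooled levels was 1539 (95% counting interval 425 to 12719), and the log2 difference was 10.07 ± 0.28 (adjusted p = 2.04e-10). S1pr3 passed the filter through the mural sums alone, so these values are a description. S1pr1 was at 0 to 1.23 CPM in mural and 197 to 273 CPM in endothelial cells (-8.84 ± 0.32, adjusted p = 9.14e-10). Of the TGF-β genes, the ligand Tgfb3 was higher in mural cells (31.2 to 79.0 against 2.41 to 10.3 CPM, 3.16 ± 0.22). The receptor Tgfbr2 was lower (55.2 to 77.2 against 205 to 285 CPM, -1.91 ± 0.12), as was the co-receptor Eng, or endoglin (63.0 to 92.6 against 310.2 to 423 CPM, -2.10 ± 0.16).

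**Figure D3:**
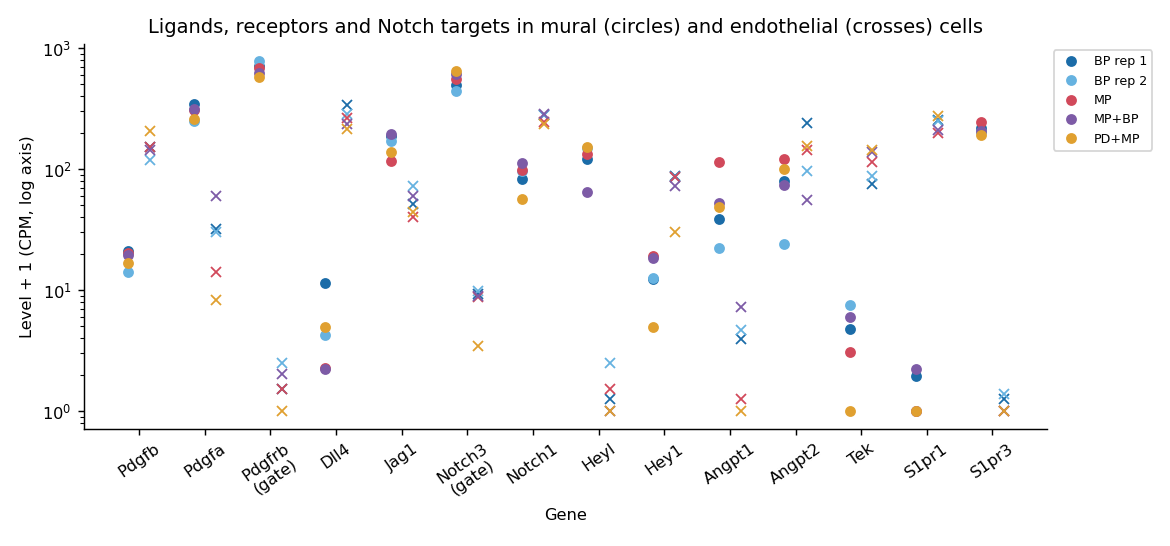
Levels of 14 ligand, receptor and target genes in mural (circles) and endothelial (crosses) sums of each tumour, as CPM with 1 added on a log axis. S1pr3 (189 to 245 CPM) and Pdgfa are higher in mural sums, Dll4, Pdgfb, Tek and S1pr1 in endothelial sums, and Angpt2 overlaps.

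Several channels and receptors for vasoactive signals were near 0 in the endothelium. Of 28, which included the gate gene Kcnj8, 19 were tested, with 15 higher, 3 lower and a median of 5.49. Only 2 were well counted, 1 higher and 1 lower (median 1.77). Trpc6, a cation channel, was at 829, 761, 479, 493 and 465 CPM against at most 1.11 CPM in endothelial cells (10.17 ± 0.26, adjusted p = 1.64e-10). Gucy1a1, a subunit of the nitric oxide receptor, was at 495, 715, 581, 447 and 410.0 CPM against at most 0.690 (10.15 ± 0.23, adjusted p = 8.54e-11). Ano1, a calcium-activated chloride channel, was at 214, 356, 217, 242 and 209 CPM against at most 1.03 (8.49 ± 0.22), with BP replicate 2 above the rest. These 3 genes were near 0 in the endothelium of every tumour. Olfr558, an olfactory-type receptor gene (chr7:102702215-102712064), was at 137, 176, 205, 190.2 and 166 CPM in mural cells, 939 UMIs in all, with 1 UMI in endothelial cells.

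Matrix genes differed by kind. Of 22 fibrillar and elastic matrix genes, 19 passed the filter, with 15 higher, 1 lower and a median of 5.52, but only 3 were well counted, 1 of them higher (median 0.47). All 14 basement membrane genes passed it, with 4 higher, 7 lower and a median of -0.46, and the 11 well-counted ones had 2 higher, 6 lower and a median of -0.53. Col5a3, a chain of collagen V, was at 421, 325, 265, 288 and 367 CPM against at most 4.83 (8.59 ± 0.33, adjusted p = 1.54e-09). Postn, the adhesive protein periostin, was at 946, 784, 581, 641 and 1167 CPM against at most 6.90 (8.51 ± 0.43). Mgp, an inhibitor of calcification, was at 3505, 1242, 2266, 4141 and 7466 CPM (6.49 ± 0.72), and was lowest in BP replicate 2 and highest in PD+MP as Tagln was. Of the basement membrane, Lama2, a laminin chain of muscle, was at 557, 859, 589, 526 and 453 CPM against 4.83 to 24.4 (5.09 ± 0.18, adjusted p = 7.68e-10). Hspg2, the proteoglycan perlecan, was at 42.7 to 86.0 against 440.1 to 643 CPM (-3.02 ± 0.15). Col4a1, the main basement membrane collagen, was high in both, at 2544 to 3863 CPM in mural and 2124 to 3602 CPM in endothelial cells, and higher in mural cells in 4 of 5 tumours (0.35 ± 0.12, adjusted p = 0.0273). That call was lost in 5 alternatives, without either BP replicate, without TMM, with DESeq2 and without the tumour as a block.

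Of 30 transcription factor genes, 26 passed the filter, with 17 higher and 2 lower in mural cells and a median of 2.06. The 9 well-counted ones had 2 higher, 2 lower and a median of 0.17. Those shares were near the ones over all well-counted genes (913 higher and 884 lower of 3748). Foxs1, a forkhead factor, was at 49.1, 39.4, 59.4, 37.0 and 74.9 CPM against at most 0.370 (7.90 ± 0.38, adjusted p = 7.98e-09). Tbx18, a T-box factor used to mark mural cells, was at 21.0 to 34.0 CPM against at most 0.741 (6.28 ± 0.49). Zeb2, a zinc finger repressor, was at 1248, 1467, 902, 869 and 1229.9 CPM against 10.3 to 23.0 (6.15 ± 0.19, adjusted p = 3.99e-10). All were higher in all 5 tumours, which the rule that named them required.

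Signals to immune cells were also found in the mural sums. Of 16 chemokine, cytokine and adhesion genes, 12 passed the filter, with 6 higher and 4 lower and a median of 1.61, and only 2 were well counted, 1 higher and 1 lower (median 0.76). Il6 was at 423, 677, 732, 1004 and 351 CPM against 4.80 to 12.1 in endothelial cells (6.45 ± 0.19, adjusted p = 2.99e-10). Il34, a ligand of the macrophage receptor CSF1R, was at 206, 214, 197, 169 and 149.8 CPM against at most 10.7 (4.56 ± 0.15, adjusted p = 4.1e-10). Ccl11, an eosinophil chemokine, was at 46.0 to 108 CPM against at most 1.03 (8.24 ± 0.39). Ccl2, a monocyte chemokine, varied most, at 1236, 309, 536, 709 and 237 CPM against 7.24 to 119 (3.53 ± 0.34). Genes known to respond to enzymatic dissociation were higher as well, 11 of 12 with none lower and a median of 0.78 (0.74 with at least 10 counts, where all 12 were kept), among them the heat shock gene Hspa1a at 736, 579.9, 408, 466 and 390.2 CPM against 65.5 to 389 (2.15 ± 0.24). The part of dissociation in the levels of Il6 and Ccl2 was not tested.

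Outside the lists, the leading genes higher in mural cells included Serping1, Rarres2 and Thy1. Serping1, the inhibitor of complement C1, was at 469.5, 526, 363, 485 and 429.7 CPM against at most 0.690 (10.69 ± 0.29, adjusted p = 1.95e-10). Rarres2, the precursor of chemerin, was at 186 to 247 CPM, with 1 UMI in endothelial cells. Thy1, a surface glycoprotein, was at 336, 366, 394, 361 and 382 CPM against at most 1.85 (9.37 ± 0.35). Npy1r, a receptor of neuropeptide Y, was at 36.8, 67.4, 80.3, 95.1 and 27.6 CPM with no endothelial UMI, at least 316-fold higher.

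**Figure D4:**
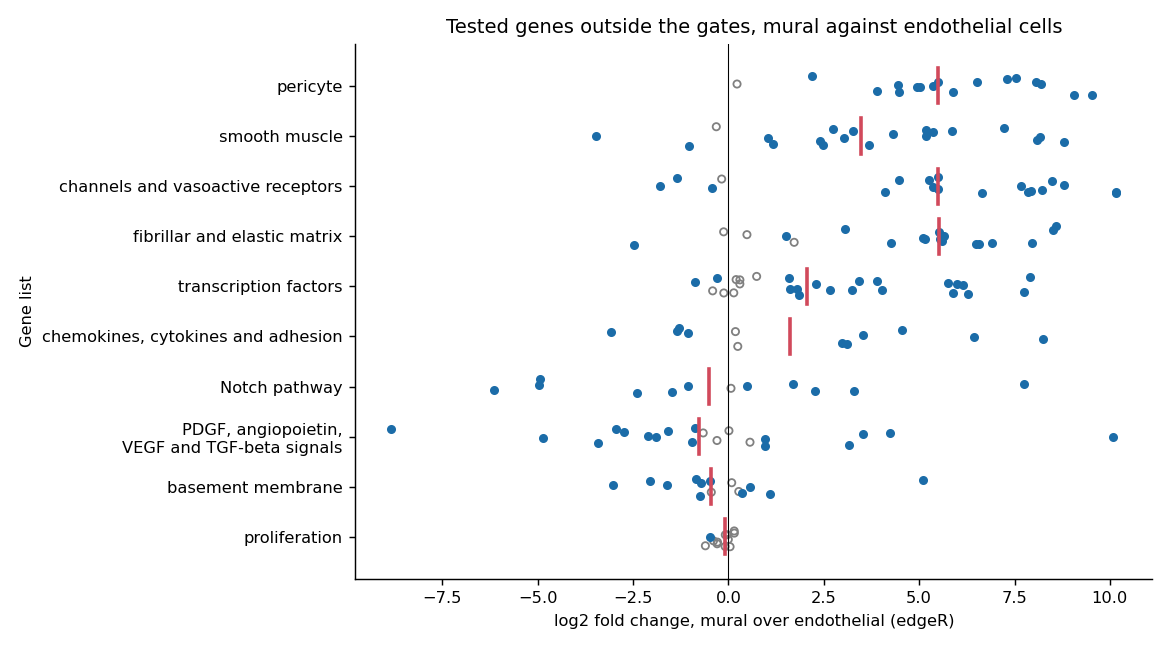
Log2 differences, mural minus endothelial, of the genes in each list (1 point per tested gene, 5 tumour pairs, edgeR). Filled points passed an adjusted p of 0.05, open points did not, and the red bar is the median of the members that passed the filter on low counts. The pericyte (5.49), channel (5.49) and fibrillar matrix (5.52) medians lie far to the right of 0, that of the proliferation list (-0.09) lies at it.

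Genes of cell division were found in both populations. Of 12 proliferation genes, none was higher in mural cells and 1, Birc5 (survivin), was lower (-0.49, adjusted p = 0.0378), with a median of -0.09. The 8 well-counted members had the same counts and a median of -0.14. Mural cells with at least 4 of the 12 genes made up 7.11%, 3.95%, 12.4%, 7.44% and 25.6% of those of each tumour. Endothelial cells gave 8.29%, 8.21%, 24.2%, 13.8% and 17.9%, and were the lower ones only in PD+MP. This measure was taken without thinning, and rises with the depth of a cell. PD+MP was also the only tumour where the median mural cell was deeper than the endothelial one (5393 against 5072 UMIs). The part of depth in this measure was not tested. After thinning each cell to 2000 UMIs, Top2a, a topoisomerase of dividing cells, was found in 4.71%, 3.88%, 8.56%, 8.98% and 16.2% of mural and 7.21%, 4.94%, 13.8%, 9.20% and 13.3% of endothelial cells. Before thinning these shares were 7.24% to 28.2% and 12% to 24.4%. Both measures were higher in endothelial cells in 4 of 5 tumours. Mki67, another gene of the list, was thinned in the same way. It was found in 2.62%, 2.33%, 4.73%, 3.59% and 5.41% of mural and 5.86%, 3.12%, 9.31%, 6.47% and 11.7% of endothelial cells. For Mki67 the endothelial share was thus higher in all 5 tumours, PD+MP included.

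Myh11 marked a minority of mural cells in every tumour. Of all members, 788 had no Myh11 UMI, 187 had 1 and 116 had 2 or more. The share with at least 2 was 10.4% (95% exact binomial interval 6.65% to 15.4%), 9.21% (5.13% to 15.0%), 11.4% (8.68% to 14.6%), 9.30% (5.78% to 14%) and 15.4% (5.86% to 30.5%), and all intervals overlapped. With 1 UMI or more the share was 28.0%, 21.7%, 32.5%, 21.4% and 28.2%. The same measure gave 0% to 1.08% in endothelial cells and 0.509% to 2.11% in the deeper SyS cells, which should lack the gene. Cells with 2 or more UMIs were deeper (median 5230.5 UMIs) than those with 1 (4303) or none (3832.5). After thinning every cell to 2000 UMIs the shares with at least 1 were 15.7%, 16.3%, 17.1%, 16.2% and 18.9%, closer together than before, against 0% to 0.810% in endothelial cells. The gate bears on this split, since a cell with Myh11 needed fewer other gate genes to enter it, and it held 116 of the 276 kept cells with at least 2 Myh11 UMIs.

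Cells with at least 2 Myh11 UMIs were set against those with none in 4 tumours, leaving out PD+MP, which had only 6 such cells. Of 6025 tested genes 0.913% passed, 0.73% higher (44) and 0.183% lower (11), with the tumour as a block, and 597 had an unadjusted p under 0.05. Of 16 tested smooth muscle genes, 8 were higher and none lower, with a median of 0.82. None of 16 pericyte genes passed either way, with a median of -0.13. Without the tumour as a block, only 7 genes passed (Lmod1, Itga4, Kcnab1, Tmtc1, Tagln, Thsd4 and Gpc6), and 2 of them were smooth muscle genes. Leaving out BP replicate 1 gave 30 calls. With every cell thinned to 2000 UMIs and split at 1 Myh11 UMI, a setting chosen after seeing the data, 7 genes passed, Tagln and Myl9 among them. The smooth muscle median was then 0.33, with 2 of 11 tested genes higher, and it was 0.49 at 1 UMI without thinning.

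Tagln was at 1950, 1556, 1368 and 3422 CPM in the Myh11-positive cells of the first 4 tumours in the order used, and at 461, 115, 441 and 584 CPM in the negative ones. Cells with 1 UMI lay between in 3 of the 4 tumours, at 377, 552, 698 and 656 CPM, with BP replicate 1 the exception. The difference of positive from negative cells was 2.37 ± 0.21 (SE, n = 4 pairs, adjusted p = 8.79e-07). In PD+MP, outside the fit, Tagln was at 4587 against 1282 CPM. Lmod1, leiomodin, which seeds actin filaments in smooth muscle, was at 100.3, 78.6, 93.6 and 111 against 13.9, 18.8, 26.0 and 24.6 CPM (2.12 ± 0.30, adjusted p = 0.000359). Tpm1 was at 1034, 739, 1057 and 2014 against 518, 356, 639 and 575 CPM (1.12 ± 0.16, adjusted p = 0.000438). Myl9 was at 345, 220.0, 562 and 1137 against 198, 81.6, 415 and 298 CPM (1.05 ± 0.21, adjusted p = 0.0156). The contractile genes thus went with Myh11 in each of the 4 tumours, most steeply in BP replicate 2 for Tagln and in MP+BP for Tpm1 and Myl9. Map3k7cl, Tpm2, Mylk and Cald1 also passed, with differences from 0.79 to 1.43. Des did not follow (-0.02 ± 0.31, adjusted p = 0.998), nor did Actg2, a smooth muscle actin, pass (1.94 ± 0.53, adjusted p = 0.109).

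Among the pericyte genes, which did not pass, 3 of 16 had a higher fitted level in Myh11-positive cells. Abcc9 differed by -0.47 ± 0.15 (adjusted p = 0.177) and Rgs4 by -0.46 (adjusted p = 0.514). For the gate genes no test is given. Acta2 was at 3253, 1210, 2753 and 5090 CPM in positive and 1143, 406, 1569 and 1227 CPM in negative cells, and Kcnj8 at 207, 204, 116 and 37.1 against 374, 295, 224 and 119.7 CPM. Acta2 was higher and Kcnj8 lower in the positive cells of all 4 tumours. A cell with Myh11 needed fewer other gate genes to enter, which favours a lower Kcnj8 in positive cells. Both directions are therefore a description only. Per cell, the median share of UMIs from the smooth muscle list was 0.407%, 0.448% and 0.719% with 0, 1 and 2 or more Myh11 UMIs, and that of the pericyte list 0.725%, 0.746% and 0.629%.

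Further genes higher in Myh11-positive cells included a potassium channel subunit, an integrin and a phosphodiesterase. Kcnab1, the channel subunit, was at 81.5, 330, 206 and 111 CPM in positive against 16.7, 18.8, 29.3 and 16.4 CPM in negative cells (2.93 ± 0.29, adjusted p = 4.43e-06). Itga4, the α4 integrin, differed by 2.41 ± 0.30 (adjusted p = 7.06e-05). Pde3a, which breaks down cyclic nucleotides in vascular smooth muscle, was at 602, 754, 801 and 865 against 411, 462, 321 and 364 CPM (0.96 ± 0.16, adjusted p = 0.00218). Crispld2, a secreted protein, was at 100.3, 157, 171 and 358 against 20.9, 10.5, 37.3 and 72.2 CPM (2.38 ± 0.26, adjusted p = 1.15e-05). The groups did not overlap for any of these genes whose values are given. The genes were named among calls with the same sign in each tumour, so this separation is a description. Among the 11 lower genes, Plac8 was at 351, 660, 658 and 24.7 against 713, 1086, 1170 and 300 CPM (-1.07 ± 0.19, adjusted p = 0.00517), and the imprinted gene Mest differed by -1.87 ± 0.34 (adjusted p = 0.00556). The immediate early gene Fos passed as lower (-1.24 ± 0.26, adjusted p = 0.0198) at 288, 487, 1834 and 655 against 1336, 1682, 1514 and 2235 CPM, but MP went the other way. Fos belongs to the dissociation list, of which 2 of 12 genes were lower (median -0.51), and the part of handling in the split was not tested.

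**Figure D5:**
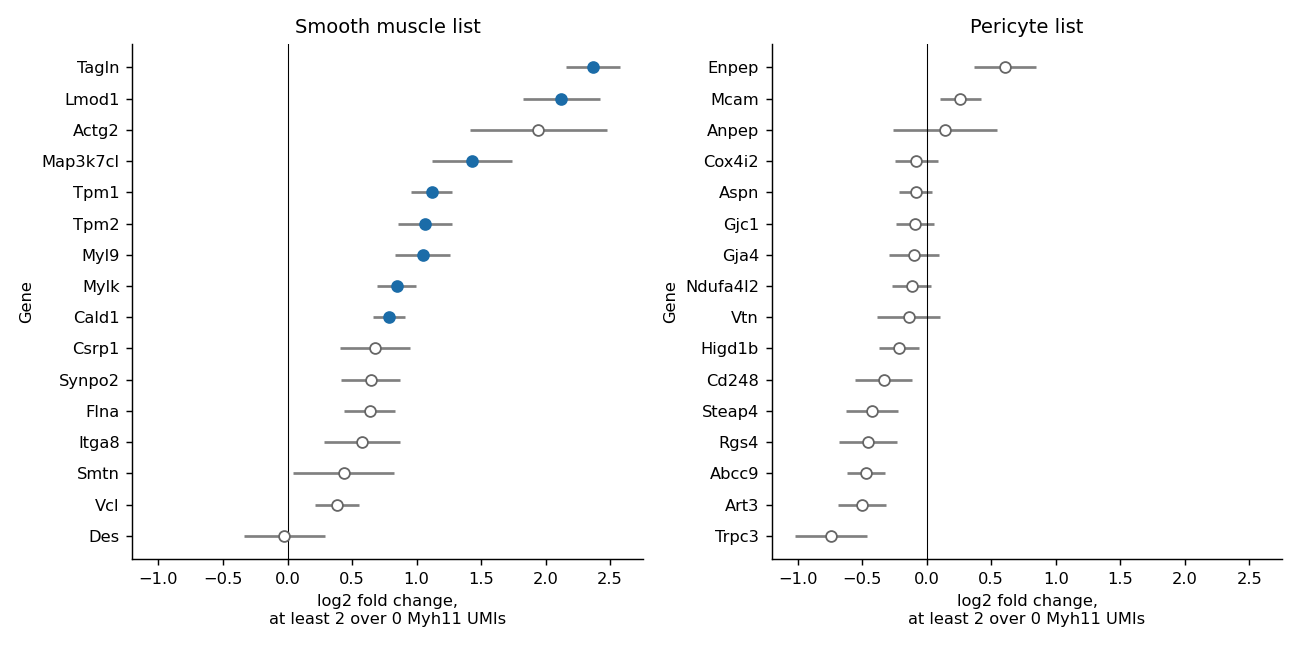
Log2 differences of Myh11-positive (at least 2 UMIs) minus Myh11-negative mural cells in 4 tumours for the smooth muscle and pericyte lists, with standard errors derived from the edgeR test statistic. Filled points passed an adjusted p of 0.05. Tagln (2.37) and Lmod1 (2.12) lead the 8 smooth muscle genes that passed, and no pericyte gene passed.

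Between tumours with and without BP in the label, few mural genes could be told apart. Of 8634 tested genes 1 passed, which is 0.0116%, and it was higher with the BP label (0.0116% higher, 0.0% lower). At an unadjusted p under 0.05 there were 630 genes, and DESeq2 called 7. The gene was Lef1, a transcription factor of the Wnt pathway, at 50.1 CPM in BP replicate 1, 72.3 in BP replicate 2, 71.6 in MP+BP, 4.6 in MP and 7.88 in PD+MP. The groups did not overlap, with 64.7 ± 12.6 CPM (SD, n = 3) against 6.24 ± 2.32 (SD, n = 2), a log2 difference of 3.55 ± 0.38 (SE) and an adjusted p of 0.0213. Since the call chose Lef1, this separation is a description. The call was lost in 5 of 13 alternatives, among them those without BP replicate 2 (adjusted p = 0.151) and without MP (adjusted p = 0.543). In endothelial cells Lef1 was at 193, 274, 59.6, 190.4 and 181 CPM and in SyS cells at 240.3, 170.1, 103, 343 and 25.8 CPM. Over all 8634 genes, 4396 had a higher fitted level with the BP label. The 12 proliferation genes were all lower (median -1.09). Of 19 smooth muscle genes 1 was higher (median -0.57), and of 12 chemokine, cytokine and adhesion genes 10 were (median 0.59). None of the genes in these lists passed the adjusted threshold. The part of free SyS RNA in the Lef1 UMIs was not tested.

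Some genes stood out in the mural cells of 1 tumour. Igfbp3, which binds insulin-like growth factors, was at 189 CPM in BP replicate 1 and 0 to 39.5 CPM elsewhere, while endothelial cells held 1010.3 to 4121 CPM. In BP replicate 2, the neuropeptide precursor gene Cartpt was at 70.6 CPM and the interferon-induced Gbp5 at 52.6 CPM. S100a4, a calcium-binding protein, was low there at 41.1 CPM against 209 to 686 CPM in the other tumours. In MP+BP the mural level of Trpm3, a cation channel, was 295 CPM, with 811 CPM in SyS and 81.1 CPM in endothelial cells of that tumour. Pcp4, a calmodulin-binding protein, was at 162 CPM there, with 321 CPM in SyS cells. Fabp4, a fatty acid binding protein, was at 183 CPM in MP. Of these, Trpm3 and Pcp4 were higher in the SyS cells of the same tumour than in its mural cells, and Igfbp3 in its endothelial cells. The part of free RNA in them was not tested.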

How the data were processed

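Single-cell libraries of 5 *hSS2* tumours were made with droplet 3′ chemistry. The matrices deposited by the authors hold unscaled UMI counts, made with Cell Ranger 7.2.0 (file headers) on mm10 (submitters' processing notes) and filtered for empty droplets. They were not corrected for free RNA. Gene coordinates come from the GENCODE annotation of GRCm38, in which 32235 of 32286 feature identifiers occurred, and promoters from RefSeq (GRCm38.p6). Members, lists and tests were chosen with earlier results of these data known.

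Cells were kept and gated as the report states. The endothelial gate needed at least 2 UMIs of Cdh5 and Pecam1, at most 1 of Rgs5, Notch3 and Kcnj8, and the other limits of the mural gate. SyS reference cells had at least 5 Adgrb3 UMIs. Doublets were scored with Scrublet (scanpy 1.11.5), whose automatic threshold marked no cell in 2 tumours. None were removed, and the median mural score was 0.0146 to 0.0859 per tumour. Removing the highest scores up to an expected share was an alternative.

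UMI counts were summed per tumour and population (at least 10 cells) and tested in R 4.3.3 with edgeR 4.0.16 (filterByExpr, TMM and the quasi-likelihood test), calling genes at a Benjamini-Hochberg adjusted p of 0.05. The tumour was the block, since both populations of a pair come from the same tumour. Gate genes that passed the filter were fitted and adjusted with the rest. All 21 were then left out of the counts of tested and called genes, but in the Myh11 split only the 7 mural gate genes were. Standard errors (SE) of log2 differences were derived from the test, as the absolute difference over the square root of its F statistic. CPM is the count of a sum scaled to a total of 1000000. On simulated counts of these designs the test recovered 70% of 2-fold and 97% of 4-fold changes for mural against endothelial cells (10732 genes), 53% and 96% for the Myh11 split (6032) and 26% and 83% for the BP label (8645). The simulated counts held no tumour effects and few changed genes, whereas 43.5% of genes were called between mural and endothelial cells. These rates therefore describe the simulation only. Folds against a population without UMIs use a floor of 3 counts over it. Named genes were the gate, pericyte, smooth muscle, Notch and vessel signal genes. Added were up to 4 leading called genes of other lists, and up to 10 leading genes each way outside the lists for each comparison. Except for the BP label, these added genes had to have the same sign in every tumour, which Fos in the split did not. Genes that stood out in 1 tumour were added too, up to 3 for each, and Top2a and Mki67 were added after their values had been seen. One gene that this rule names is not reported here. Alternatives were other gates, DESeq2 1.42.0, no TMM, other count filters, each tumour left out, thinned counts and no block.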

Additional observations from a re-analysis of the deposited data

Results flagged for a closer look

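Of 111 mural levels examined across the 5 tumours with Dixon's test, 16 had 1 tumour farther from the rest than its critical value of 0.71, and chance gives about 1 in 20. Values are mural CPM. Of the mural and signal genes, Myh11, a gate gene whose value is a description only, was high in MP at 122, Actg2 in PD+MP at 110.4, Map3k7cl in PD+MP at 110.4, Tgfbr2 in BP replicate 2 at 77.2 and Ano1 in BP replicate 2 at 356. The rest had been chosen because 1 tumour stood out, so their distance is a description. Igfbp3 was at 189 in BP replicate 1, Cartpt at 70.6 and Gbp5 at 52.6 in BP replicate 2, and Fabp4 at 183 in MP. In MP+BP, Pcp4 was at 162, Spp1 at 88.9 and Trpm3 at 295. In PD+MP, with 39 mural cells, the Y-linked Uty was at 59.1, Ifi27l2a at 86.7 and Fibin at 74.9, and Gm8797 was low at 35.5 against 654 to 787 elsewhere.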

How the results depend on the processing

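The mural share with the BP label minus that without ranged from -3.83 to 1.85 percentage points as each tumour was left out, and turned to 1.85 without MP. The share of Myh11-positive cells moved from 11.1% to 4.08% when cells were thinned to 2000 UMIs and to 26.4% at 1 UMI or more. Mural against endothelial calls fell from 4659 to 1797 with at least 10 counts in every sum, since fewer genes were tested, lay between 3514 and 4832 as each tumour was left out, and numbered 4265 with no replicate block. Without TMM, 2089 were higher and 2628 lower, as all genes shifted by -0.07 in the median, and with no low-count filter 2607 and 3283. For the Myh11 split 55 calls became 36 with DESeq2, 36 with at least 10 counts, 170 with no filter (63 higher, 107 lower) and 7 with no replicate block. Thinned cells split at 1 UMI, an alternative chosen after seeing the data, gave 7 (Tagln and Myl9 among them), and leaving out a tumour 30 to 56, the fewest without BP replicate 1. Split at 2 UMIs, thinned cells could not be fitted, because all but 1 tumour had under 10 positive cells. Tagln, Lmod1, Kcnab1 and Itga4 passed in all split alternatives that tested them. Fos was lost in 8 of 16, Tgfb2 in 9, Jun in 11 and Myl9 in 5. For the BP label the 1 call became 0 with at least 4 mural genes, with no UMI of excluded genes, with at least 1500 genes per cell and with at least 10 counts, 7 with DESeq2 (3 higher, 4 lower) and 197 with no filter (136 and 61), and 0 to 3 as a tumour was left out (0 without BP replicate 2, 2 without MP, neither of them Lef1, 3 without MP+BP, 2 without PD+MP). Where no reason is given, the cause was not tested. Of uncalled genes, Hes1 turned to -0.013 without TMM, -0.019 with no filter and between -0.023 (without MP+BP) and 0.16 as each tumour was left out. Des in the split turned to 0.11 with DESeq2, 0.011 without TMM, 0.044 with no replicate block, 0.17 at 1 UMI and 0.095 in thinned cells, and ranged from -0.26 to 0.32 as each tumour was left out, positive without MP and without BP replicate 1. Rbpj lost its call in 8 alternatives, Birc5 in 7 and Col4a1 in 5. No replicate block ended the calls of Birc5 and Col4a1, and no other call among the 114 genes compared for mural against endothelial cells. The split rested on 14 to 54 positive cells per tumour.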
